A study of Drosophila melanogaster with 6 samples.

Results

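The Polycomb and trithorax group genes were examined in RNA from whole Drosophila melanogaster embryos aged 10 to 15 hours. They were chosen by gene symbol from a list of 37 names, of which 36 were found among the 10526 genes of the authors' deposited table. The name Scr1 matched no gene there and was not analysed. The 36 genes are 18 of the Polycomb group and 18 of the trithorax group or acting with it. All 36 passed the filter on low counts, and their counts ran from 65 reads (escl) to 10496 reads (kis) in a library.

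The mutant line was homozygous for sgg[isoD-CI-DS-SFS]. The CRISPR-edited shaggy gene of this line carried an N-terminal DsRed tag and an internal StrepII-Flag-StrepII tag, and both of its consensus caspase recognition sites had been changed. The control line was homozygous for sgg[isoD-DS-SFS], which carried the same tags with intact sites. Each line gave 3 embryo collections, independent and matched for stage per the study's design text, and was a single stock, so the edited sites and other differences between the stocks cannot be told apart. Shaggy is the fly form of glycogen synthase kinase 3, and caspases are proteases of cell death and of some non-lethal signalling.

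Polycomb group proteins keep developmental genes, the Hox genes above all, silent in cells where they were silent early in development. They work in complexes. Polycomb repressive complex 2 (PRC2) methylates histone tails, and complex 1 (PRC1) binds that mark, monoubiquitinates histones and compacts chromatin. PhoRC contains DNA-binding proteins, and PR-DUB removes ubiquitin from histones. Trithorax group proteins oppose this silencing through activating histone methylation, ATP-driven nucleosome remodelling by the Brahma complex, and factors acting on transcription itself.

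Libraries held 15160388 to 15641368 counted reads in the mutant line and 12646077 to 19454630 in the control line. Without molecular identifiers PCR copies are counted too, so a counting error computed from the reads is a lower bound. Pearson's r of log2 CPM across the tested genes was 0.989 to 0.990 within the mutant line, 0.984 to 0.992 within the control line and 0.967 to 0.978 between the lines, over genes that are not independent replicates. The edited gene sgg had 4647, 4604 and 4703 reads in mutant collections 1, 2 and 3, against 3624, 6026 and 5818 in control collections 1, 2 and 3. This was 306 ± 2.77 CPM in the mutant line and 302 ± 15.5 CPM in the control line (SD, n = 3 each), and no difference was detected in edgeR's quasi-likelihood test (adjusted p 0.871). The count covers all sgg transcripts and does not check the edited sites. CPM here are counts brought to a common library total with TMM scaling (trimmed mean of M-values).

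Expression of the Polycomb and trithorax genes was compared between the lines. In the mutant line 8 members fell: the PRC1 genes ph-p, Psc and Su(z)2, the PhoRC gene phol, the Brahma complex genes mor and Bap60, the histone demethylase gene Utx and the Mediator gene skd. They were 15.3% to 20.6% lower. These were calls at an adjusted p under 0.05 in edgeR's quasi-likelihood test with Benjamini-Hochberg adjustment over all tested genes, and 8 of 36 members (22.2%) passed it as lower, against 913 of all 10526 tested genes (8.67%). In the higher direction 0 of 36 members passed, against 13.7% of all tested genes, and 0 did at an unadjusted p under 0.05 or in the DESeq2 and limma-voom tests. In either direction 22.3% of the tested genes were called, which is close to the share of members called. The number of members called lower was 3 without mutant collection 1, 4 without each of mutant collections 2 and 3 and control collections 2 and 3, and 9 without control collection 1, where the share of all genes called lower was 4.29% to 6.89%. With library size alone in place of TMM, 11 members and 12.1% of all tested genes were called lower, and 49.9% of all calls were higher, against 61.1% with TMM. The shares of all tested genes were not matched for level or spread. The median level was 72.1 CPM over the members and 26.9 CPM over all tested genes. The median SD as a percentage of the mean was 5.78% in the mutant line and 6.67% in the control line for the members. Over all tested genes it was 8.10% and 8.84%. The median size of the log2 fold change was 0.18 over the members and 0.19 over all tested genes. No test of the list as a whole was made.

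The estimates lay on one side. Of the 36 members, 34 had a log2 fold change below 0, against 51.5% of all tested genes, with only ash2 and Trl above 0. The number below 0 was 34 under each other scaling, filter and test, which reuse the same 6 libraries. It was 30 to 34 with a library left out. The median was -0.18 over the members and -0.01 over all tested genes, and the members spanned -0.33 to 0.10. The 18 Polycomb genes had a median of -0.16 and the 18 trithorax genes one of -0.18, with 4 genes called lower in each. For 15 members the 3 mutant values all lay below the 3 control values, which held for 20.0% of all tested genes, and for 0 members they all lay above, which held for 21.9%. At an unadjusted p under 0.05, 16 members were lower, against 16.1% of all tested genes (higher: 20.0% of all tested genes).

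**Figure D1:**
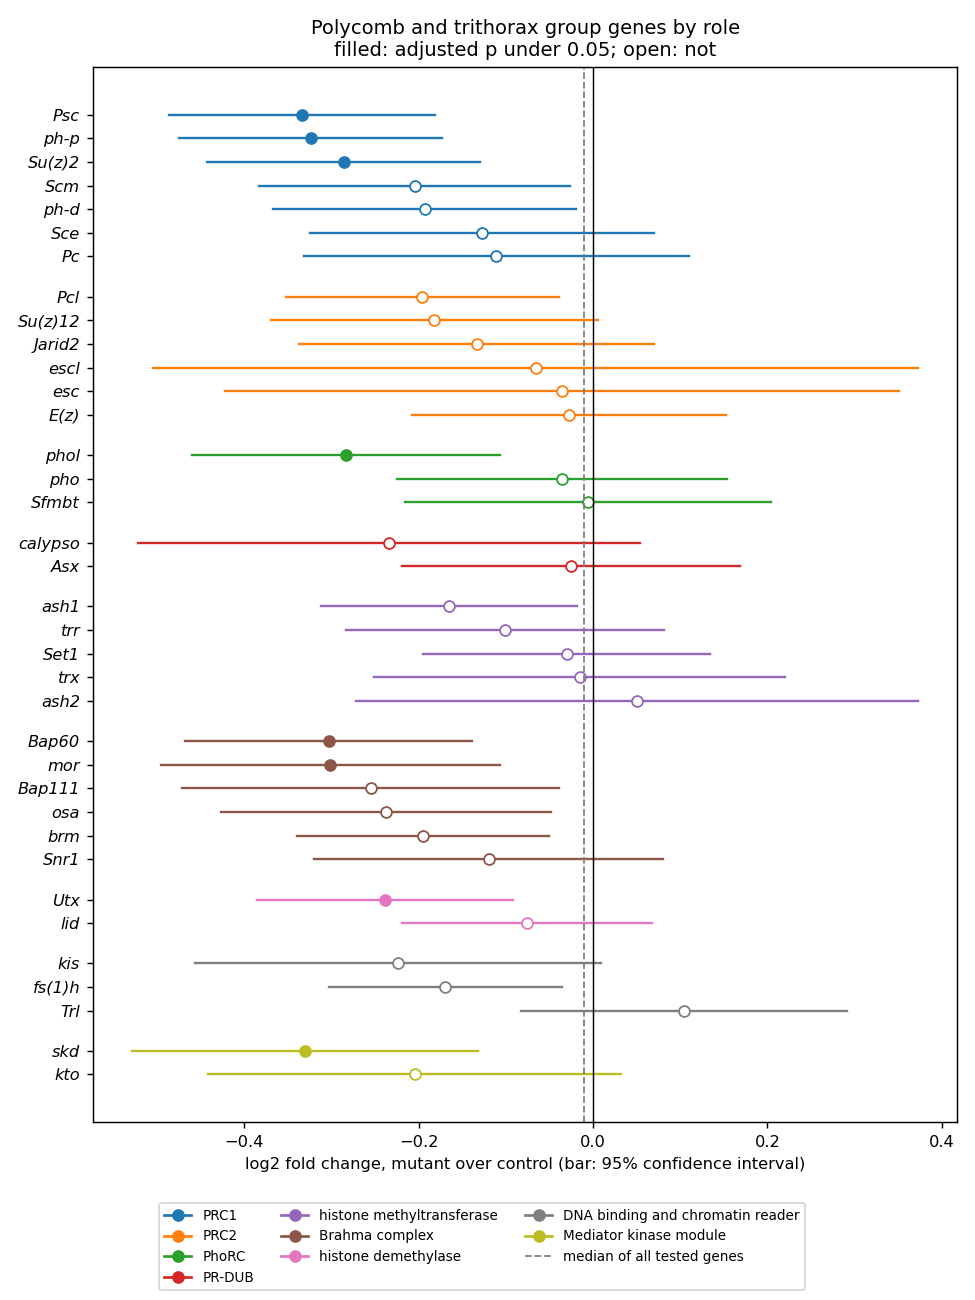
Log2 fold change of each of the 36 genes, mutant over control (horizontal axis), by role (colour), with its 95% confidence interval as a bar. Filled points mark the 8 genes past the threshold, all left of 0, and the dashed line is the median of all tested genes at -0.01.

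**Figure D2:**
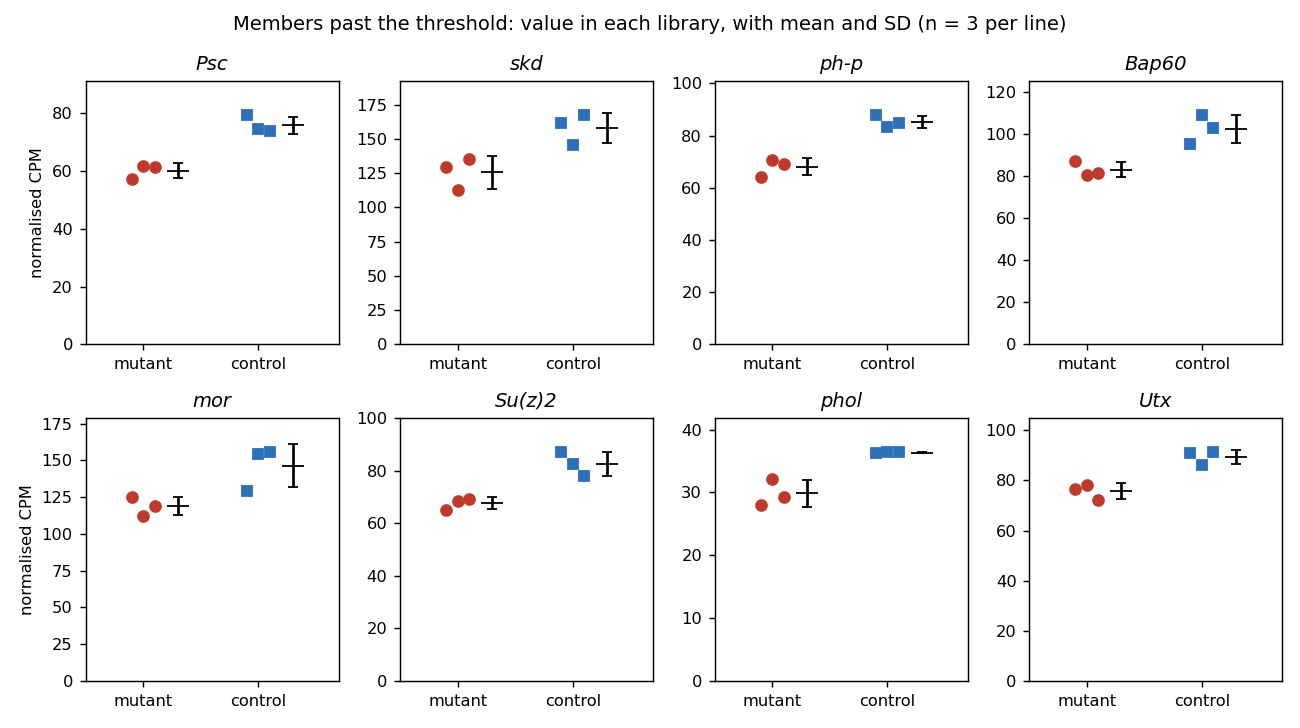
Normalised CPM (vertical axis, from 0) of the 8 genes past the threshold in each mutant and control library, with the mean and SD beside the points (n = 3 per line). In each panel the 3 mutant points lie below the 3 control points.

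The PRC1 genes were examined first. Of 7 genes, 3 fell and the other 4 did not pass the test, where 8.67% of all tested genes were called lower. All 7 estimates were below 0, against 51.5% of all tested genes. Psc encodes a RING finger scaffold protein of the complex. It had 57.4, 61.9 and 61.3 CPM in mutant collections 1, 2 and 3, against 79.3, 74.6 and 73.8 CPM in control collections 1, 2 and 3. The highest mutant value was well below the lowest control value. Psc (FBgn0005624, 2R, 12965997 to 12980994, reverse strand) averaged 60.2 ± 2.44 CPM in the mutant line and 75.9 ± 2.97 CPM in the control line (SD, n = 3 each), and its log2 fold change was -0.33 (standard error 0.07, edgeR adjusted p 0.0100).

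Su(z)2, a close relative of Psc in sequence and function, lies 15.5 kb away on the same arm (FBgn0265623, 2R, 12996501 to 13007911, forward strand). Its values were 65.0, 68.5 and 69.3 CPM in the mutant collections, against 87.0, 82.5 and 77.9 CPM in the control collections. The lines did not overlap, and control collection 3 was the lowest of its line. The log2 fold change was -0.29 (standard error 0.07, edgeR adjusted p 0.0200).

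ph-p, one of the tandem polyhomeotic genes whose proteins polymerise and help to compact chromatin, had 64.3, 70.6 and 69.2 CPM in the mutant collections, against 87.7, 83.2 and 84.6 CPM in the control collections. All 3 mutant values were below all 3 control values. Its log2 fold change was -0.32 (standard error 0.07, edgeR adjusted p 0.0109). Its tandem copy ph-d was at 35.5 ± 2.10 CPM in the mutant line and 40.6 ± 1.73 CPM in the control line (SD, n = 3 each), and its log2 fold change was -0.19 with a 95% interval of -0.37 to -0.02 and an edgeR adjusted p of 0.105. The lines did not overlap for ph-d either, and 20.0% of all tested genes were lower in the mutant line without overlap. The copies are similar in sequence, so reads could have been divided between them by the authors' counting.

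Both polyhomeotic genes lie on the X chromosome near the edited gene. ph-p (FBgn0004861, X, 2126210 to 2138371, reverse strand) ends 495.6 kb from sgg, and ph-d (FBgn0004860, X, 2115727 to 2123286, reverse strand) is 2.92 kb further along. The methyltransferase gene trr lies 744.0 kb from sgg and did not pass the test (log2 fold change -0.10). Of the 162 tested genes within 1 Mb of sgg, 11 (6.79%) were called lower and 12 higher, against 8.67% and 13.7% of all tested genes. Among members, 2 of the 6 on X (33.3%) and 6 of the 30 elsewhere (20.0%) were called lower, against 9.13% of the 1697 tested genes on X and 8.67% of all tested genes.

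The other PRC1 genes did not pass. Scm, a linker protein gene, was at 41.7 ± 1.83 CPM in the mutant line and 48.1 ± 3.46 CPM in the control line (SD, n = 3 each) without overlap, and its log2 fold change was -0.20 (95% interval -0.38 to -0.03, edgeR adjusted p 0.0964). Sce, the gene for the ubiquitin ligase RING subunit, had a log2 fold change of -0.13 (95% interval -0.32 to 0.07). Pc, whose chromodomain protein binds the PRC2 mark, had one of -0.11 (95% interval -0.33 to 0.11). The summed level of the 7 genes was 324 ± 9.50 CPM in the mutant line and 388 ± 10.7 CPM in the control line (SD, n = 3 each), given without a test.

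No gene of PRC2 passed the edgeR test among 6. At an unadjusted p under 0.05, 1 was lower, against 16.1% of all tested genes. That gene was Pcl, for an accessory protein of the complex, at 41.6 ± 1.89 CPM in the mutant line and 47.7 ± 1.26 CPM in the control line (SD, n = 3 each), with an edgeR adjusted p of 0.0738. E(z), the catalytic methyltransferase gene, had 27.7, 28.2 and 25.6 CPM in mutant collections 1, 2 and 3, against 28.8, 27.0 and 27.4 CPM in control collections 1, 2 and 3. The lines overlapped, and the 95% interval of its log2 fold change ran from -0.21 to 0.15. Su(z)12, a core subunit gene, had a log2 fold change of -0.18 (edgeR adjusted p 0.150), and Jarid2, for an accessory subunit, one of -0.13 (edgeR adjusted p 0.321).

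esc and escl encode interchangeable WD-repeat subunits of PRC2 and had the lowest CPM of the members. esc had 12.0, 7.90 and 9.13 CPM in the mutant collections, against 9.35, 9.55 and 10.8 CPM in the control collections. escl had 4.31, 4.28 and 5.28 CPM in the mutant collections, against 5.74, 4.24 and 4.65 CPM in the control collections. Both genes overlapped between the lines. The 95% interval of the log2 fold change was -0.42 to 0.35 for esc and -0.50 to 0.37 for escl, which include 0 and changes of the size seen in PRC1. The 65 reads of escl in its lowest libraries correspond to a counting error of at least 12.4%.

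In PhoRC, phol fell while pho and Sfmbt did not pass. pho and phol encode related zinc finger proteins that bind Polycomb response elements in DNA. phol (FBgn0035997, 3L, 9452803 to 9456281, reverse strand) had 28.1, 32.2 and 29.3 CPM in the mutant collections, against 36.2, 36.4 and 36.4 CPM in the control collections. The control collections were nearly equal and all above the mutant ones. The log2 fold change was -0.28 (standard error 0.08, edgeR adjusted p 0.0319).

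pho, on chromosome 4, had 78.5, 67.5 and 66.0 CPM in the mutant collections, against 73.3, 74.9 and 69.0 CPM in the control collections. The lines overlapped, with a log2 fold change of -0.04 (95% interval -0.22 to 0.15). Sfmbt, the partner of both, was at 72.5 ± 4.87 CPM in the mutant line and 72.7 ± 7.63 CPM in the control line (SD, n = 3 each). Its 95% interval ran from -0.22 to 0.20.

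In PR-DUB neither gene passed the edgeR test. Asx, the cofactor gene, had a log2 fold change of -0.03 (adjusted p 0.865), and calypso, the deubiquitinase gene, one of -0.23 with a 95% interval of -0.52 to 0.05 (adjusted p 0.220).

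Of the 6 Brahma complex genes 2 were called lower, against 8.67% of all tested genes. All 6 estimates were below 0, against 51.5% of all tested genes, with a median of -0.25. mor, a scaffold subunit gene (FBgn0002783, 3R, 15968134 to 15972913, reverse strand), had 125, 112 and 119 CPM in the mutant collections, against 129, 154 and 156 CPM in the control collections. Control collection 1 lay closest to the mutant values. The log2 fold change was -0.30 (standard error 0.09, edgeR adjusted p 0.0361).

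Bap60, for an accessory subunit (FBgn0025463, X, 13157445 to 13159508, reverse strand), had 87.2, 80.7 and 81.4 CPM in the mutant collections, against 95.4, 109 and 103 CPM in the control collections. The lines did not overlap. The log2 fold change was -0.30 (standard error 0.07, edgeR adjusted p 0.0194). The ATPase gene brm was at 124 ± 3.80 CPM in the mutant line and 142 ± 6.93 CPM in the control line (SD, n = 3 each), also without overlap. Its log2 fold change was -0.19 and did not pass (edgeR adjusted p 0.0583).

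osa, which marks one form of the complex, was at 236 ± 20.0 CPM in the mutant line and 278 ± 20.7 CPM in the control line (SD, n = 3 each; edgeR adjusted p 0.0740). Bap111, for an HMG domain subunit, was at 69.6 ± 2.64 CPM in the mutant line and 83.0 ± 10.3 CPM in the control line (SD, n = 3 each; edgeR adjusted p 0.0883), where control collection 1 overlapped the mutant values. In fits that each left out 1 library, brm and Bap111 passed only without control collection 1 (edgeR adjusted p 0.0312 and 0.0109). mor kept its call in that fit alone. Bap60 kept its call there and without mutant collection 1 and control collection 3, and lost it in the other fits. Snr1, a core subunit gene, had a log2 fold change of -0.12 (edgeR adjusted p 0.367). The summed level of the 6 genes was 715, 661 and 681 CPM in mutant collections 1, 2 and 3, against 746, 836 and 850 CPM in control collections 1, 2 and 3, given without a test.

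Of the 5 genes of histone methyltransferases and their cofactor, none passed the edgeR test. Only ash1 was lower at an unadjusted p under 0.05, against 16.1% of all tested genes. ash1 was at 75.6 ± 0.44 CPM in the mutant line and 84.8 ± 4.30 CPM in the control line (SD, n = 3 each), with an edgeR adjusted p of 0.101. trx, the founding gene of the group, had 150, 133 and 155 CPM in the mutant collections, against 146, 129 and 168 CPM in the control collections. The control values enclosed the mutant ones, and the 95% interval of the log2 fold change was -0.25 to 0.22. Set1 had a log2 fold change of -0.03 (95% interval -0.19 to 0.13), and ash2, for a shared cofactor of these enzymes, had one of 0.05 (95% interval -0.27 to 0.37).

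The histone demethylase genes differed in their calls. Utx, whose product removes the PRC2 mark (FBgn0260749, 2L, 10272325 to 10278811, reverse strand), had 76.6, 78.3 and 72.3 CPM in the mutant collections, against 90.8, 86.1 and 91.3 CPM in the control collections. The lines did not overlap, and the log2 fold change was -0.24 (standard error 0.06, edgeR adjusted p 0.0310). lid, whose product removes an activating methyl mark, was at 241 ± 10.3 CPM in the mutant line and 254 ± 10.6 CPM in the control line (SD, n = 3 each; edgeR adjusted p 0.427). The difference between Utx and lid was not tested.

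skd and kto encode the large subunits of the Mediator kinase module. skd (FBgn0003415, 3L, 20992814 to 21027434, reverse strand) had 129, 112 and 135 CPM in the mutant collections, against 161, 146 and 167 CPM in the control collections. The lines did not overlap, although each spread over more than 20 CPM. The log2 fold change was -0.33 (standard error 0.09, edgeR adjusted p 0.0282). kto was at 58.4 ± 6.16 CPM in the mutant line and 67.4 ± 7.20 CPM in the control line (SD, n = 3 each), with overlap between the lines (log2 fold change -0.20, edgeR adjusted p 0.195).

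None of the 3 remaining genes passed the edgeR test. fs(1)h, the gene of a bromodomain reader protein, was at 320.0 ± 10.2 CPM in the mutant line and 360 ± 11.0 CPM in the control line (SD, n = 3 each) without overlap (edgeR adjusted p 0.0704). kis, a chromodomain remodeller gene and the member with most reads, was at 429 ± 36.6 CPM in the mutant line and 501 ± 63.8 CPM in the control line (SD, n = 3 each; edgeR adjusted p 0.152). Trl encodes GAGA factor, which binds GA repeats at promoters and Polycomb response elements, and had the highest estimate of the list at 0.10 (edgeR adjusted p 0.402). The annotated exons of Trl overlap those of CG42507 on the same strand, so its count is uncertain. Those of escl overlap dgt2 on the same strand. Other members, among them skd, Sfmbt, trx, Scm and calypso, overlap exons of genes on the opposite strand. The use of strand in counting is not given, so an effect on these counts is not known.

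Levels were set side by side per kb of annotated exon, since a longer transcript gives more reads. In both lines the Brahma complex held the top of the list. Bap60 had 42.9 CPM per kb in the mutant line and 52.9 in the control line, and Snr1 had 40.7 in the mutant line and 44.1 in the control line. The lowest level was that of escl, at 2.56 CPM per kb in the mutant line and 2.69 in the control line. Within PRC1, Sce stood above the others at 21.2 CPM per kb in the mutant line and 23.2 in the control line. In PRC2, E(z) had 10.2 CPM per kb in the mutant line and 10.4 in the control line, above esc with 5.68 in the mutant line and 5.81 in the control line. Exon lengths are those of all annotated transcripts merged, so a gene whose embryonic transcripts use part of them is understated.

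**Figure D3:**
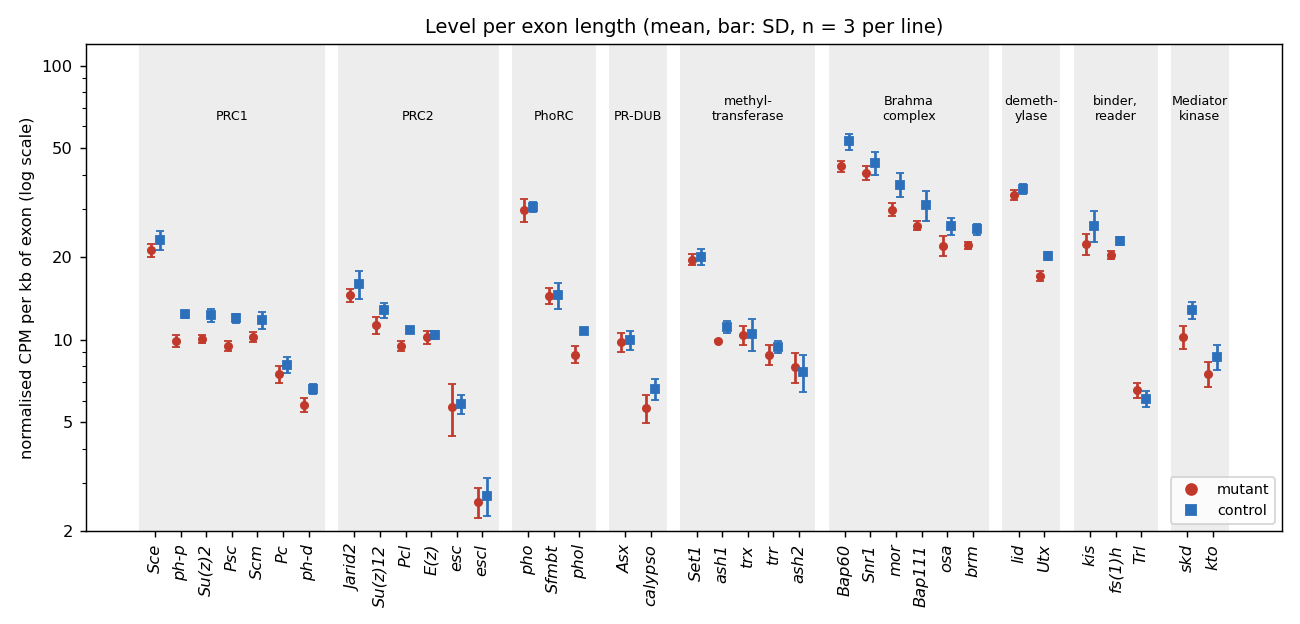
Normalised CPM per kb of annotated exon (log axis) of each gene by role, mutant and control side by side, as the mean with its SD (n = 3 per line). Bap60 and Snr1 of the Brahma complex stand highest and escl of PRC2 lowest in both lines.

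Balance within paralogue pairs was measured as the share of the first gene in the reads of both, which needs no scaling between libraries. ph-p made up 66.0%, 65.8% and 65.4% of polyhomeotic reads in mutant collections 1, 2 and 3, against 68.6%, 68.1% and 66.6% in control collections 1, 2 and 3. phol made up 26.4%, 32.3% and 30.8% of pho and phol reads in the mutant collections, against 33.1%, 32.7% and 34.5% in the control collections. The lines did not overlap in either pair, though control collection 3 came close for ph-p and control collection 2 for phol. The mean share was lower by 2.01 points for ph-p and by 3.64 points for phol, each with p = 0.1 in an exact two-sided permutation test, the smallest that 3 against 3 collections allow, and 0.2 after Benjamini-Hochberg adjustment over the 4 pairs. Without mutant collection 1 the phol share was lower by 1.91 points, and with each other collection left out by 3.09 to 4.88 points.

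Psc made up 47.1% ± 0.33 of the reads of Psc and Su(z)2 in the mutant line and 47.9% ± 0.63 in the control line (SD, n = 3 each; exact permutation p 0.2, adjusted 0.267). escl made up 32.7% ± 5.52 of the reads of esc and escl in the mutant line and 32.9% ± 4.41 in the control line (SD, n = 3 each; exact permutation p and adjusted p 1.0). In each of these pairs the collections of the lines overlapped.

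**Figure D4:**
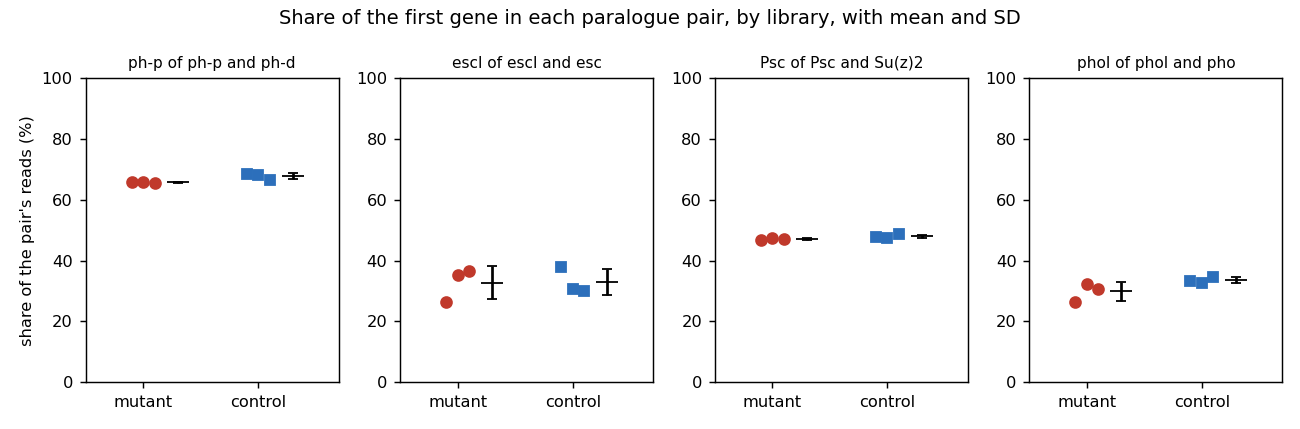
Share of the first-named gene in the reads of each paralogue pair (vertical axis, percent) by library, with mean and SD (n = 3 per line). The mutant points lie below the control points for ph-p and phol and overlap them for escl and Psc.

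A further 37 genes whose products work with these complexes were counted beside them, among them partner subunits, recruitment factors and other Polycomb and trithorax group genes. Of the 37, 3 (8.11%) were lower in edgeR's test, close to the 8.67% of all tested genes, and 0 were higher, against 13.7%. Their median log2 fold change was -0.17, against -0.01 over all tested genes. An unadjusted p under 0.05 was reached by 14 lower and 0 higher, against 16.1% and 20.0% of all tested genes, and DESeq2 and limma-voom also called 0 higher. mxc, which is needed at the histone gene locus, was at 19.3 ± 2.05 CPM in the mutant line and 26.9 ± 1.51 CPM in the control line (SD, n = 3 each; log2 fold change -0.47, edgeR adjusted p 0.0133). Bap55, an actin-related Brahma subunit gene, had a log2 fold change of -0.37 (edgeR adjusted p 0.0397). wds, for a WD-repeat subunit shared by the methyltransferase complexes, had one of -0.28 (edgeR adjusted p 0.0339) and lies 45.7 kb from sgg. In fits that each left out 1 library mxc passed in all 6 (adjusted p 0.0183 to 0.0404). wds passed without mutant collection 1 (0.0470) and in none of the other fits (0.0580 to 0.0955), and Bap55 passed without control collections 2 and 3 (0.0417 and 0.0448) and in none of the other fits (0.0629 to 0.105).

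**Figure D5:**
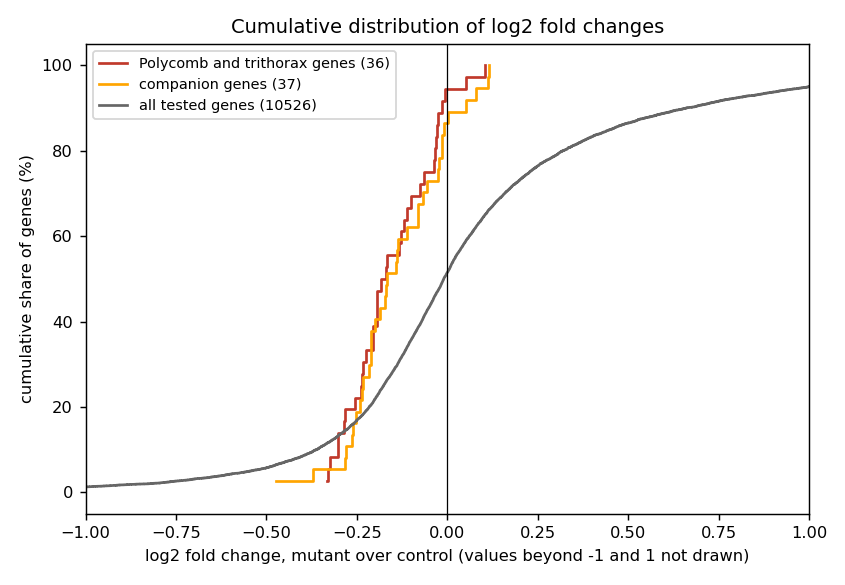
Cumulative share of genes (vertical axis, percent) by log2 fold change, mutant over control (horizontal axis), for the 36 Polycomb and trithorax genes, the 37 companion genes and all 10526 tested genes. Both lists cross 50% at about -0.18 and -0.17, left of all tested genes at -0.01, and neither reaches the large changes of either sign found among all genes.

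The classic targets of this system were listed as the 8 Hox genes with en and inv. Their median log2 fold change was -0.19 over the 10 genes, of which 8 were below 0. For the 8 Hox genes it was -0.19, with 6 below 0. Over all tested genes the median was -0.01, and 51.5% were below 0. None of the 8 Hox genes passed the edgeR test, which called 8.67% of all tested genes lower and 13.7% higher. None passed the DESeq2 and limma-voom tests either. With library size alone in place of TMM, Antp and Ubx did, both lower (adjusted p 0.0344 and 0.0491), and without control collection 3 Abd-B did, also lower (0.0408). At an unadjusted p under 0.05, 2 of the 8 Hox genes were lower and 1 higher, against 16.1% and 20.0% of all tested genes. lab, a Hox gene of the head, was at 26.4 ± 0.70 CPM in the mutant line and 23.2 ± 1.09 CPM in the control line (SD, n = 3 each; edgeR adjusted p 0.118), and Antp was at 103 ± 2.92 CPM in the mutant line and 117 ± 7.49 CPM in the control line (SD, n = 3 each; edgeR adjusted p 0.0842). Of the engrailed pair, inv fell to 19.2 ± 1.94 CPM in the mutant line, against 24.9 ± 1.54 CPM in the control line (SD, n = 3 each; log2 fold change -0.37, edgeR adjusted p 0.0313). It lost the call without mutant collections 1 and 2 and control collections 1 and 2 (adjusted p 0.0648 to 0.0826). In whole embryos a level sums over all cells, so fewer cells of a type and less RNA per cell cannot be told apart, here and for the members.

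Lists of marker genes were also compared between the lines, where 8.67% of all tested genes were called lower and 13.7% higher. Of 6 muscle marker genes, 5 rose and 0 fell, and their summed level was 27180 to 27880 CPM in the mutant collections and 22060 to 23810 CPM in the control collections. Of 5 neural progenitor markers 2 fell (wor and mira) and 0 rose. Their summed level was 112 to 119 CPM in the mutant collections and 139 to 142 CPM in the control collections. This sum held mira, at 52.2 CPM in the mutant line and 75.7 CPM in the control line. The list was split, with 3 estimates below 0 and 2 above (dpn 0.19 and insc 0.11). Of 8 genes of S phase and mitosis 4 fell (Mcm2, Mcm5, CycE and stg) and 0 rose. Their summed level was 498 to 667 CPM in the mutant collections and 482 to 676 CPM in the control collections. CycB and polo had estimates above 0 (0.08 and 0.05). CycB varied widely, with 292 CPM in mutant collection 1 and 129 CPM in control collection 1. Of 6 neuron markers 3 rose and 1 fell, with a summed level of 1643 to 1697 CPM in the mutant collections and 1599 to 1683 CPM in the control collections.

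Of the 6 cuticle genes 1 rose and 2 fell (summed level 3326 to 3519 CPM in the mutant collections and 3151 to 3322 CPM in the control collections). Of the 3 germ cell genes 1 fell and 0 rose (15.8 to 20.1 CPM in the mutant collections and 19.7 to 31.8 CPM in the control collections). Among the 3 glia and 4 hemocyte genes 0 passed the edgeR test. The glia genes summed to 409 to 444 CPM in the mutant collections and 400.1 to 436 CPM in the control collections, and the hemocyte genes to 293 to 324 CPM in the mutant collections and 285 to 325 CPM in the control collections. No marker was at 0. Whether these differences have any part in the Polycomb and trithorax values was not tested.

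The calls of the members varied in how much they rested on single libraries. ph-p and Psc passed in edgeR's test whichever library was left out. Su(z)2 lost its call without mutant collection 1 (adjusted p 0.0547). Bap60 lost it without mutant collections 2 and 3 and control collection 2 (adjusted p 0.0647 to 0.0718). Utx lost it whichever library was left out (adjusted p 0.0518 to 0.102). mor lost it in each such fit except that without control collection 1 (0.0602 to 0.120), phol without mutant collections 1 and 3 and control collections 2 and 3 (0.0672 to 0.0904), and skd without mutant collections 1 and 2 and control collection 3 (0.0604 to 0.0776). The authors' deposited table, a limma-voom comparison, gives an adjusted p under 0.05 for 8 members, the same 8, from 0.0095 for Psc to 0.0349 for mor. At that threshold 8.62% of all genes were lower in the mutant line in the authors' deposited table.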

How the data were processed

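Single-end, strand-specific, poly(A)-selected RNA-seq libraries from 100 ng of RNA and 12 PCR cycles, per the labels, were analysed for 3 embryo collections of each of 2 lines. The authors deposited whole-number counts for 17493 genes, and a table of 10526 genes that repeats these counts (equal for all 10526) with log2 CPM, the log2 fold change of control over mutant, p-values and adjusted p-values, and the t and B score of limma, per the file headers. TopHat2 2.1.1, Bowtie2 2.3.4.0, edgeR 3.14.0 and limma 3.28.21 are named in the submitters' processing notes. The genome build, counting tool and use of strand are not given in the sources used here.

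From the counts, genes were kept by filterByExpr (minimum count 10, minimum total count 15), scaled by TMM and tested by edgeR 4.0.16 quasi-likelihood (R 4.3.3), mutant over control, all 6 libraries, no covariate, two-sided, threshold 0.05 on the Benjamini-Hochberg adjusted p over all genes. The 95% intervals are the log2 fold change plus or minus its standard error times the t quantile. Alternatives were other scalings and filters, DESeq2 1.42.0, limma-voom (limma 3.58.1), the replicate number as a block, and leaving out each library. Fitting was tested on simulated counts. A shared day or batch for replicates of the same number is not given, so the number was not a covariate. Positions and exon lengths are from the Ensembl release 115 annotation of BDGP6, matched by gene ID. Members and lists were chosen with earlier results of these data known. Every member is named, with full values for those past the threshold and for paralogue pairs. Of companions and targets those past the threshold are named, and lab and Antp were named after their values were seen.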

Additional observations from a re-analysis of the deposited data

How the results depend on the processing

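For the 36 members the alternatives gave 504 estimates, of which 457 kept direction and side of the threshold, 26 lost the call, 6 gained it and 15 changed sign, none of these in a called member; the cause of these changes was not tested. Under other scalings, filters and tests the members called numbered 7 to 11, all lower, and the DESeq2 Wald test was the one that did not call phol (adjusted p 0.0558). With library size alone, which moves the median of all genes from -0.01 to -0.05, the members' median was -0.22, 5 companion and 3 target genes were called, and 49.9% of all calls were higher, against 61.1% with TMM. With the replicate number as a block 5 members were called, all 5 lower (ph-p, Psc, Su(z)2, Bap60, skd), and 0 target genes (1994 of all genes). Equally numbered collections did not deviate together (r -0.0188 to 0.0102), so no pairing by number was detected.

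Leaving out 1 library each gave 3 to 9 members called, all lower, 1295 to 2146 of all genes, 0 to 2 target genes, 1 to 3 companion genes and a members' median of -0.20 to -0.15. Without one library, the log2 fold changes that changed sign were E(z) (from -0.063 to 0.0014), esc (-0.24 to 0.089), escl (-0.18 to 0.056), Sfmbt (-0.090 to 0.037), Asx (-0.10 to 0.035), trx (-0.12 to 0.083), Set1 (-0.096 to 0.0095), ash2 (-0.056 to 0.15) and sgg (-0.026 to 0.040). With all libraries, sgg was below 0 with upper-quartile scaling (-0.0039) and with library size alone (-0.024).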
